A study of Danio rerio with 6 samples.

Results

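The ribosome biogenesis genes described here code for nucleolar factors that process ribosomal RNA precursors and assemble the ribosomal subunits. They were chosen by symbol: names beginning with utp, nop, nol, rrp or rrs followed by a digit, plus a short fixed list that includes fibrillarin (fbl), nucleolin (ncl), nucleophosmin (npm1a) and dyskerin (dkc1). The RefSeq gene table held 50 such symbols, 40 of them had a matched probe, and 39 were measured among 15772 genes tested, 9241 of which had a symbol. The remaining gene with a probe, nol4lb, fits only the wording of the rule and lay below the filter on dim probes, with its probes well above background on too few arrays. The genes imp3, mphosph10, nol4la, nol7, nol9, nop2, nop9, rrp1, rrp8 and utp20 had no matched probe and were not analysed here.

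The RNA came from caudal fins of wildtype zebrafish larvae at 10 days post fertilisation. Trained larvae swam in sessions of 3 h on each day from 5 to 10 days post fertilisation, and control larvae of the same strain and age were not trained. Each of the 2 trained pools, T2 and T3, and of the 2 control pools, C2 and C3, held the fins of 15 larvae, so differences among single fish cannot be seen. T2 was hybridised with C2 on 4 two-colour Agilent arrays (pair 2, with the dyes swapped and every hybridisation repeated) and T3 with C3 on 2 arrays (pair 3, one array per dye orientation), which makes the pool pair the replicate. The labels do not say whether pools of the same number share a clutch or a day, so the tests measure the spread between these pools only.

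Ribosome assembly starts in the nucleolus, where RNA polymerase I transcribes a long precursor that holds the small subunit RNA and most of the large subunit RNA. Box C/D and box H/ACA ribonucleoproteins methylate and pseudouridylate this RNA, the small subunit processome (a large particle around the U3 small nucleolar RNA) cuts out and folds the small subunit RNA, and a separate set of factors builds the 60S particle. Cells that grow and divide make many ribosomes, and the genes of this pathway are known as targets of Myc transcription factors.

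Between 54.3% and 81.2% of all probes were well above background per array and colour, and no spot was saturated. The arrays of pair 3 correlated at 0.889 over all genes, the technical repeats of pair 2 at 0.86 and 0.776, and opposite orientations of pair 2 at only 0.0834 to 0.158. The log2 ratios of trained over control spread wider over all genes in pair 3 (SD 0.528) than in pair 2 (SD 0.152). Of 11 larval fin markers 10 were measured and all 10 were well above background on every array, among them the actinotrichia genes and1 and and2, while fbln1 was not measured. Fast muscle genes such as pvalb1 were also detected, so the fin pools held muscle RNA. In pools of whole fins, fewer cells of a type and less RNA per cell cannot be told apart.

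Most ribosome biogenesis genes lay lower in the trained pool than in the control pool of pair 3, and close to equal in pair 2. The median log2 ratio of trained over control over the 39 genes was -0.43 in pair 3 and -0.03 in pair 2, with a mean over both pairs that had a median of -0.22. Over all 15772 genes the same medians were 0.05, 0.02 and 0.04. In pair 3 the ratio was below 0 for 34 of the 39 genes (87.2%), against 44.7% of all genes, and in pair 2 for 21 (53.8%), against 43.4%. All 39 genes have a symbol. The 9241 genes with a symbol lay somewhat lower than all genes, at medians of -0.02 in pair 3 and 0.01 in pair 2. Of these, 4794 lay below 0 in pair 3 and 4221 in pair 2. None of the 39 genes passed the limma test across all genes at an adjusted p of 0.05, nor did any other gene (0% called), and adjusted p-values of the 39 ran between 0.751 and 0.985.

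At an unadjusted p of 0.05, npm1a, utp4 and ncl lay lower in trained fins, 3 of 39 genes or 7.69%, against 1.82% of all genes tested, and none of the 39 lay higher, against 2.17%. Other settings gave between 0 and 9 genes lower at that level, and where 9 did, with arrays in place of pairs as the units, 5.9% or 10.6% of all genes did too. The ratio was below 0 in both pool pairs for 19 of the 39 (48.7%), against 24.7% of all genes, and above 0 in both for 3 (7.69%), against 36.6%. In the other 17 genes the pairs had opposite signs. In pair 3, 12 genes (30.8%) were at least 1.5-fold lower in the trained pool, against 7.72% of all genes, and 2 genes (5.13%), nop56 and bms1, were at least 1.5-fold higher, against 13.2%. Of the 9241 genes with a symbol, 2717 lay below 0 in both pairs and 2943 above. In pair 3, 887 of these were at least 1.5-fold lower and 1006 at least 1.5-fold higher. The count of genes lower by that fold in pair 3 depended on the signal processing, from 3 with local backgrounds as deposited (2.1% of all genes) to 24 in the deposited value table (19.6%). In pair 2 none of the 39 reached that fold in either direction, against 0.323% of all genes lower and 0.317% higher. On all 6 arrays the ratio was below 0 for 7 of the 39 (17.9%), against 8.38% of all genes: bop1, dkc1, ncl, nol11, npm1a, rrp7a and utp4.

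**Figure D1:**
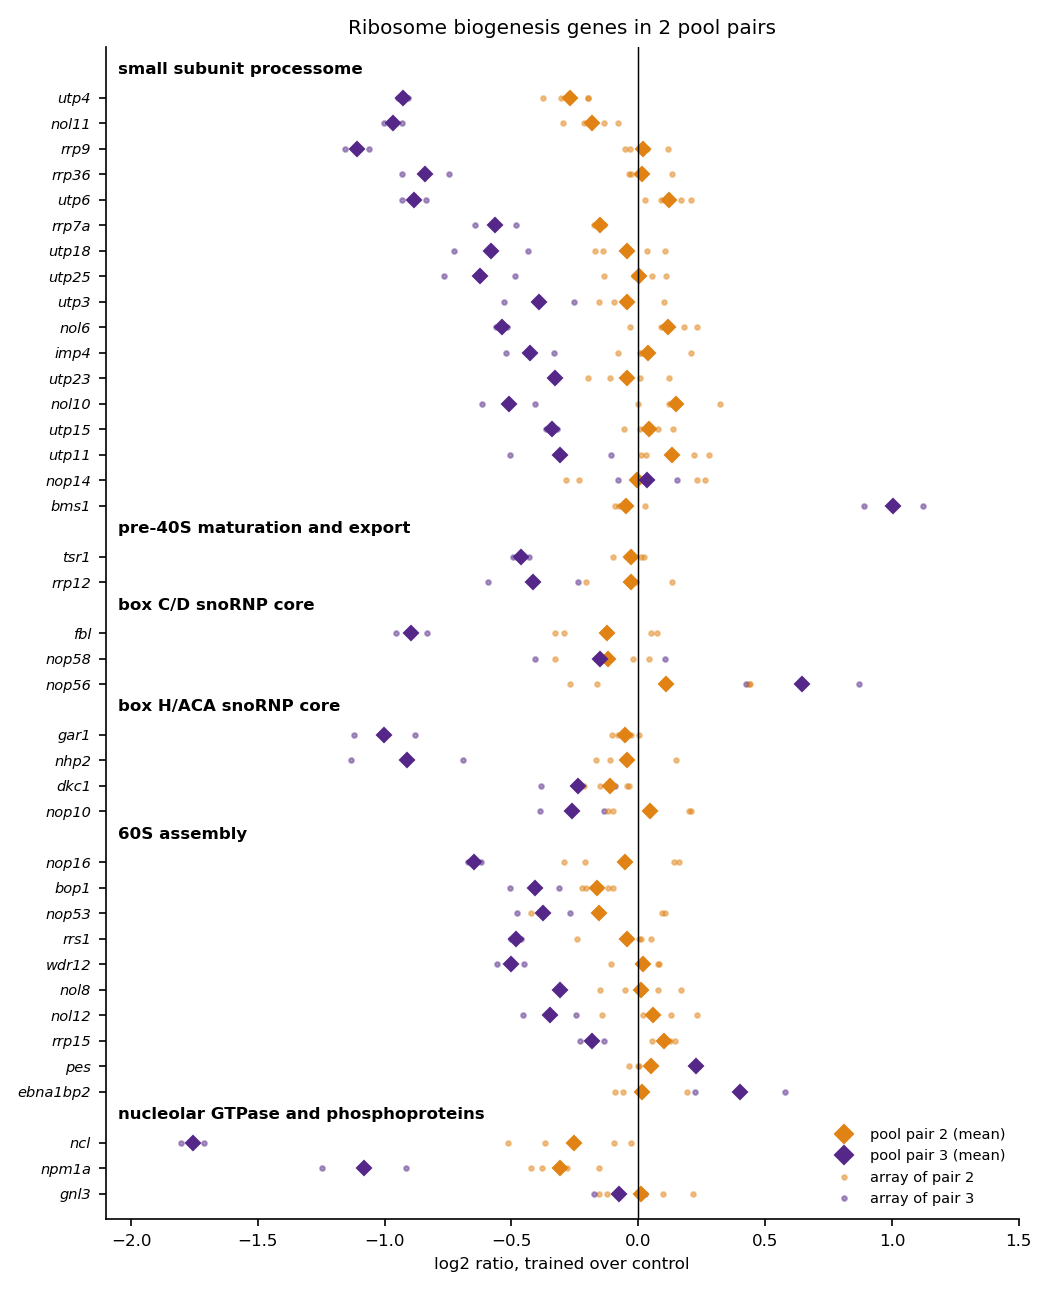
Log2 ratio of trained over control (horizontal axis) for the 39 measured ribosome biogenesis genes, grouped by role, with diamonds for the mean of each pool pair and small points for single arrays. In pair 3, 34 genes lie left of 0, while the pair 2 values lie between -0.31 and 0.15.

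**Figure D2:**
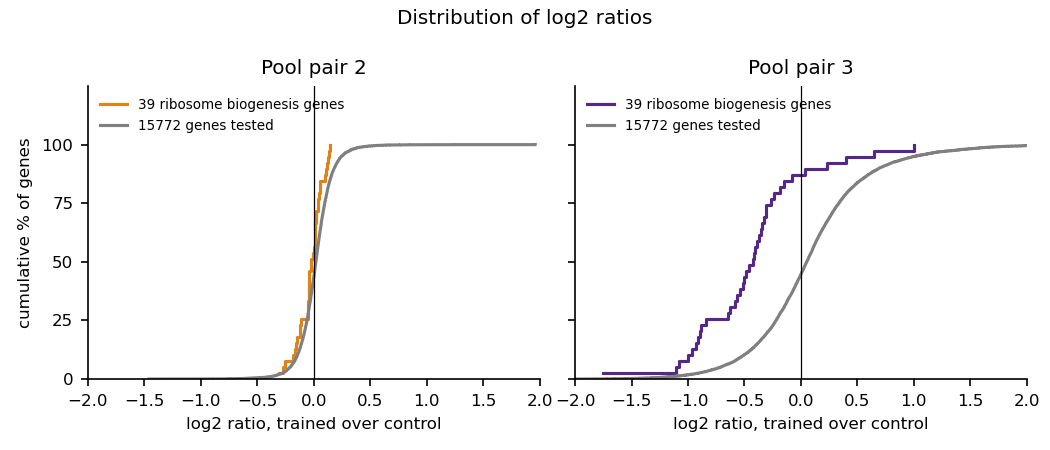
Cumulative percentage of genes (vertical axis) by log2 ratio of trained over control (horizontal axis) in each pool pair, for the 39 ribosome biogenesis genes and for all 15772 genes tested. The curve of the 39 genes lies left of the curve of all genes in pair 3 (medians -0.43 and 0.05), and in pair 2 the curves lie close together (medians -0.03 and 0.02).

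Of the role groups, the nucleolar phosphoproteins and the GTPase nucleostemin had the lowest median in both pairs. Nucleolin, encoded by ncl, binds precursor ribosomal RNA and nucleolar chromatin. It had normalised log2 intensities of 9.28 and 9.11 in T2 and T3, against 9.53 and 10.86 in C2 and C3. Both trained pools lay below both control pools, and C3 stood far above the other pools. The log2 ratio was -0.25 in pair 2 and -1.76 in pair 3, where the trained pool was 3.38-fold lower. The mean was -1.01 ± 0.37 (SE, 2 pool pairs; 95% interval -1.95 to -0.06; limma adjusted p = 0.751). These values are those of the brightest ncl probe. The other ncl probes that passed the filter ran between -0.60 and 0.04 in pair 3. With the mean of all ncl probes that passed, the ratio over both pairs was -0.42.

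Nucleophosmin, encoded by npm1a, is a histone and ribosomal protein chaperone of the granular part of the nucleolus. Its log2 intensity was 9.10 in T2 and 10.10 in T3, against 9.41 in C2 and 11.18 in C3. Each trained pool lay below its own control pool, but the groups overlapped, since T3 lay above C2. The ratio of -0.31 in pair 2 was the lowest of the 39 genes there, and that of pair 3 was -1.08, a 2.12-fold lower level. The mean was -0.70 ± 0.24 (SE; limma adjusted p = 0.751).

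The third gene of this group, gnl3, encodes nucleostemin, a nucleolar GTPase. It had log2 intensities of 7.64 and 8.26 in T2 and T3, against 7.63 and 8.33 in C2 and C3, with overlapping groups, a ratio of 0.01 in pair 2 and of -0.07 in pair 3. The 3 genes together had a median ratio of -0.25 in pair 2 and -1.08 in pair 3.

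The 17 measured genes of the small subunit processome had a median ratio of 0.00 in pair 2 and -0.54 in pair 3. In pair 3, 15 of the 17 lay below 0, and 6 were at least 1.5-fold lower and 1 at least 1.5-fold higher in the trained pool. The scaffold protein gene utp4, whose product binds the leading end of the precursor RNA, had log2 intensities of 8.44 and 8.66 in T2 and T3, against 8.71 and 9.59 in C2 and C3. Both trained pools lay below both controls, with ratios in pairs 2 and 3 of -0.27 and -0.93 and a mean of -0.60 ± 0.22 (SE; limma adjusted p = 0.751). Its partner nol11, which in human cells links transcription of the precursor to its processing, had 6.62 and 6.67 in the trained pools and 6.81 and 7.64 in the control pools. The groups did not overlap for nol11 either, with ratios of -0.18 and -0.97 in pairs 2 and 3 and a mean of -0.58 ± 0.24 (SE). The other nol11 probe that passed the filter gave -0.04 and -0.06 in pairs 2 and 3, so the size of its difference rests on the brightest probe. The nol11 mean also depended on the signal processing, from -0.32 with local backgrounds as deposited to -1.42 with processed signals. Lower trained pools without overlap were found for 3 of the 39 genes (7.69%: ncl, nol11 and utp4), against 14% of all genes. Higher trained pools without overlap were found for none, against 23%. Overlap also sets pools of different pairs side by side, so these counts rest on the normalisation between arrays.

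The U3-specific protein gene rrp9 had log2 intensities of 6.67 and 6.82 in T2 and T3, against 6.65 and 7.93 in C2 and C3. The difference was seen only in pair 3, with a ratio of -1.11 there and 0.02 in pair 2, and a mean of -0.55 ± 0.30 (SE). The rrp9 mean depended on the signal processing, from -0.26 with local backgrounds as deposited to -1.05 with processed signals. For rrp7a, a processome gene named after its yeast counterpart, the values were 7.61 and 8.17 in T2 and T3, against 7.76 and 8.73 in C2 and C3. Its ratio was below 0 on all 6 arrays, at -0.15 in pair 2 and -0.56 in pair 3 (mean -0.36 ± 0.19).

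Among the other processome genes, imp4, which helps U3 pair with the precursor RNA, had 6.68 and 6.86 in T2 and T3, against 6.64 and 7.29 in C2 and C3. The processome assembly factor utp3 had 7.20 and 7.56 in the trained pools, against 7.25 and 7.96 in the control pools. For utp15, a partner of utp4 in the same subcomplex, the values were 8.30 and 8.84 in T2 and T3, against 8.25 and 9.18 in C2 and C3. For all 3 genes C3 was the highest pool and the groups overlapped, and their ratios in pair 3 were -0.43, -0.39 and -0.34. The UTP-B subunit genes utp6 and utp18 had ratios of -0.88 and -0.58 in pair 3, and rrp36 and utp25 had -0.84 and -0.63. Those of nol6, nol10, utp23 and utp11 were -0.54, -0.51, -0.33 and -0.31, all of them with values between -0.05 and 0.15 in pair 2.

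The processome GTPase gene bms1 was the one processome gene at least 1.5-fold higher in pair 3, with log2 intensities of 7.72 and 9.07 in T2 and T3, against 7.77 and 8.07 in C2 and C3. Only T3 was high, with a ratio of 1.01 in pair 3 and -0.05 in pair 2 (mean 0.48 ± 0.29; SE). The scaffold gene nop14 was the other processome gene above 0 in pair 3, with a ratio of 0.04 there and -0.01 in pair 2. The other nop14 probe that passed the filter gave -0.16 in pair 2 and -0.87 in pair 3, so its sign there depends on the probe.

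At their brightest probes both measured genes of pre-40S maturation lay below 0 in both pairs. The late maturation factor gene tsr1, related in sequence to bms1, had 7.95 and 8.62 in T2 and T3, against 7.98 and 9.08 in C2 and C3, and a ratio of -0.46 in pair 3. The export factor gene rrp12 had a ratio of -0.41 there, and both had -0.03 in pair 2. The other tsr1 probe that passed the filter gave -0.06 in pair 2 and 0.74 in pair 3. The sign of tsr1 in pair 3 thus depends on the probe.

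**Figure D3:**
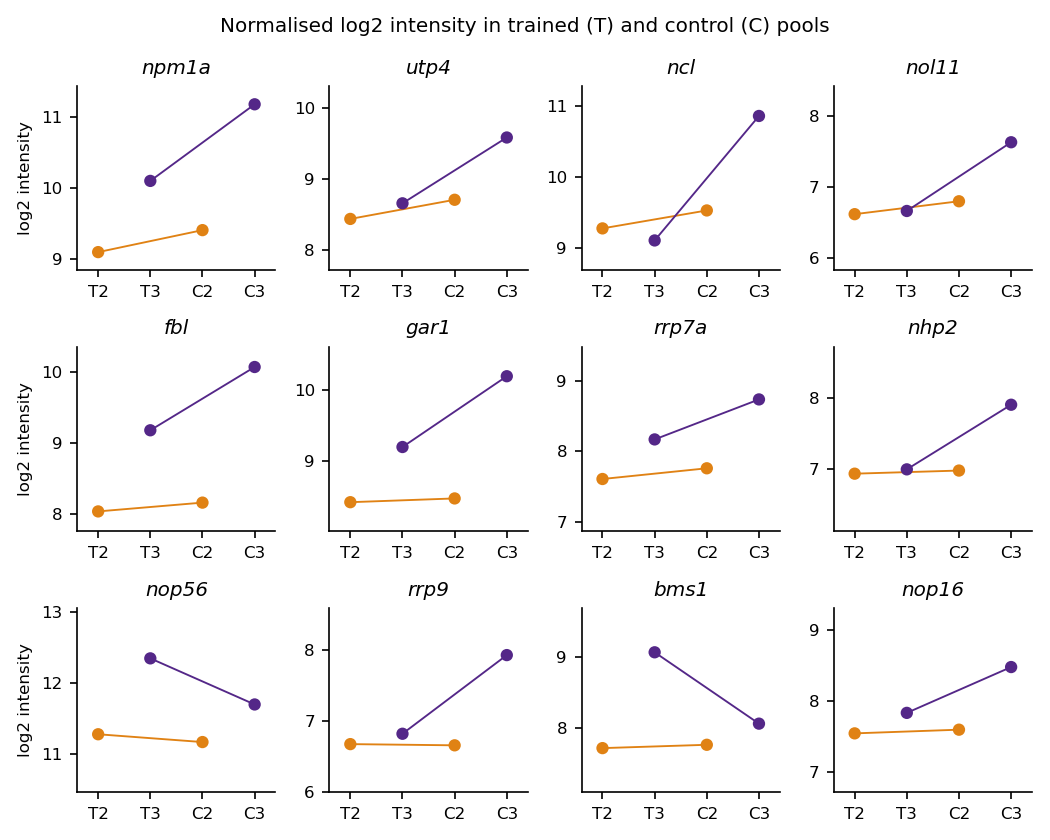
Normalised log2 intensity (vertical axis, each panel with its own scale) in the trained pools T2 and T3 and the control pools C2 and C3 for the 12 ribosome biogenesis genes with the smallest unadjusted p, with lines joining the pools of a pair (orange, pair 2; purple, pair 3). C3 is the highest pool in 10 of the 12 panels, and T3 is the highest for nop56 and bms1.

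The box C/D core genes differed from each other in sign at their brightest probes. Fibrillarin (fbl), the methyltransferase of the box C/D particles, had log2 intensities of 8.03 and 9.18 in T2 and T3, against 8.16 and 10.07 in C2 and C3. Each trained pool lay below its own control pool, at -0.12 in pair 2 and -0.90 in pair 3, but T3 lay above C2 and the mean of -0.51 ± 0.24 did not pass the test (SE; limma adjusted p = 0.751). The core scaffold gene nop58 had 8.64 and 9.54 in the trained pools, against 8.76 and 9.69 in the control pools, with a ratio of -0.15 in pair 3.

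The paralogue of nop58, nop56, had 11.28 and 12.35 in T2 and T3, against 11.17 and 11.70 in C2 and C3. It was the only core gene above 0 in both pairs, with ratios of 0.11 and 0.65 and a mean of 0.38 ± 0.20 (SE), and the trained and control groups overlapped. The 4 nop56 probes that passed the filter ran between -0.77 and 0.65 in pair 3. With the mean of these probes the ratio over both pairs was 0.02.

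All 4 box H/ACA core genes had ratios below 0 in pair 3, with a median of -0.59 there and -0.05 in pair 2. The pseudouridine synthase gene dkc1 had log2 intensities of 8.17 and 8.90 in T2 and T3, against 8.28 and 9.13 in C2 and C3. The particle protein gene gar1 had 8.41 and 9.19 in the trained pools, against 8.47 and 10.19 in the control pools, and nhp2, which binds the guide RNA, had 6.94 and 6.997 in the trained pools, against 6.98 and 7.91 in the control pools. C3 was the highest pool for all of these genes and T3 lay above C2, so the groups overlapped. The mean ratio was -0.53 ± 0.27 for gar1 and -0.48 ± 0.25 for nhp2 (SE). The smallest particle protein gene, nop10, had 7.74 and 8.31 in T2 and T3, against 7.69 and 8.57 in C2 and C3, and a ratio of -0.26 in pair 3.

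The 10 measured genes of 60S assembly had a median ratio of 0.01 in pair 2 and -0.36 in pair 3, where 8 of the 10 lay below 0. The genes of the PeBoW complex, which processes the spacer between the large subunit RNAs, differed in sign at their brightest probes. The bop1 gene had log2 intensities of 8.79 and 9.62 in T2 and T3, against 8.95 and 10.02 in C2 and C3, and ratios of -0.16 and -0.41 in pairs 2 and 3. The wdr12 gene had 6.59 and 6.61 in the trained pools, against 6.57 and 7.11 in the control pools, with -0.50 in pair 3. The third subunit gene, pes, had 7.99 and 8.94 in the trained pools, against 7.94 and 8.72 in the control pools, and ratios of 0.05 and 0.23. T3 was thus the highest pool for pes and C3 for bop1 and wdr12, and the groups overlapped for each of them. The other pes probe that passed the filter gave 0.17 and -0.48 in pairs 2 and 3. Of the 4 bop1 probes 1 gave 0.01 and 0.06, so a difference in sign between these subunits depends on the probe.

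The early 60S factor gene nop16 had 7.54 and 7.83 in T2 and T3, against 7.59 and 8.47 in C2 and C3, and was the one 60S gene at least 1.5-fold lower in pair 3, with a ratio of -0.65 (mean -0.35 ± 0.21; SE). The rrs1 gene, whose yeast counterpart brings the 5S particle to the 60S precursor, had 7.03 and 7.11 in the trained pools, against 7.08 and 7.59 in the control pools. Its ratio was -0.48 in pair 3. The other rrs1 probe that passed the filter gave 0.09 in pair 2 and -0.005 in pair 3, so the size of this difference rests on the brightest probe. The nucleolar protein gene ebna1bp2 had 7.43 and 8.33 in the trained pools, against 7.41 and 7.93 in the control pools, a ratio of 0.40 in pair 3, with T3 the highest pool. The other ebna1bp2 probe that passed the filter gave -0.09 in pair 2 and -0.22 in pair 3. The other 60S genes, nop53, nol12, nol8 and rrp15, had ratios of -0.38, -0.35, -0.31 and -0.18 in pair 3.

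Levels in single pools were also compared across the 2 pairs. C3 was the highest of the 4 pools for 33 of the 39 genes (84.6%), against 29% of all genes and 3190 of the 9241 with a symbol. T3 was the highest for bms1, ebna1bp2, nop14, nop56 and pes. The median of C3 minus C2 over the 39 genes was 0.88 on the log2 scale, and that of T3 minus T2 was 0.36, against -0.04 and 0.00 over all genes. C3 lay above C2 for 38 of the 39 genes (97.4%), against 45.1% of all genes, and T3 above T2 for 36 (92.3%), against 50.4%. After normalisation between arrays T3 lay below C2 for ncl, nol11, nop53 and utp4 only, against 7290 of all 15772 genes. The median of T3 minus C2 was 0.35, against 0.03 over all genes. These levels, and every statement on overlap of groups, compare pools that never shared an array and rest on the normalisation between arrays. Without it, C3 was the highest pool for 32 of the 39 genes, against 8.17% of all genes, and T3 minus T2 had a median of -0.07, against -0.38 over all genes. The median of C3 minus C2 was then 0.37, against -0.43 over all genes. T3 minus C2 and the overlap of groups were not computed without that normalisation.

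Both dye orientations of pair 3 showed the lower ratios. On the 2 arrays of pair 3 the median over the 39 genes was -0.49 and -0.46, with 33 and 34 genes below 0. On the 4 arrays of pair 2 it ran between -0.04 and 0.02, with 17 to 24 genes below 0. The median absolute difference between technical repeats of pair 2 was 0.05 and 0.08 in log2 ratio, and that between dye orientations was 0.15 in pair 2 and 0.20 in pair 3. A pair 2 ratio larger in size than the median orientation difference was found for 7 of the 39 genes (17.9%), against 24.3% of all genes.

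Probes of the same gene did not always give the same ratio. The array carried 90 probes for these genes, 72 of which passed the filter, and 21 genes had at least 2 such probes. Of the 72 probes, 61 lay below 0 in pair 3 and 47 in pair 2, with medians of -0.41 and -0.04. For 29 genes every probe that passed lay below 0 in pair 3, for 10 at least 1 lay above, and for bms1 the only one that passed lay above.

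The 5 probes of ncl ran between -1.76 and 0.04 in pair 3, and the brightest, which represents the gene, was the lowest. In pair 2 all 5 lay between -0.34 and -0.16. The 4 probes of npm1a ran between -1.75 and 0.00 in pair 3 and between -0.31 and -0.24 in pair 2. Both genes thus had a ratio below 0 at every probe in pair 2, while the size in pair 3 differed between probes.

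For nop56 the 4 probes had ratios of 0.65, 0.62, -0.23 and -0.77 in pair 3, so the higher level of this gene rests on 2 of its 4 probes. The probes of utp4 lay at -0.93 and -1.23, and those of nop58 at -0.15, -1.07 and -0.88, where the brightest probe was the one nearest 0. The probes of tsr1, at -0.46 and 0.74, opposed each other, as did those of pes, ebna1bp2, nop14, bop1 and utp18.

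**Figure D4:**
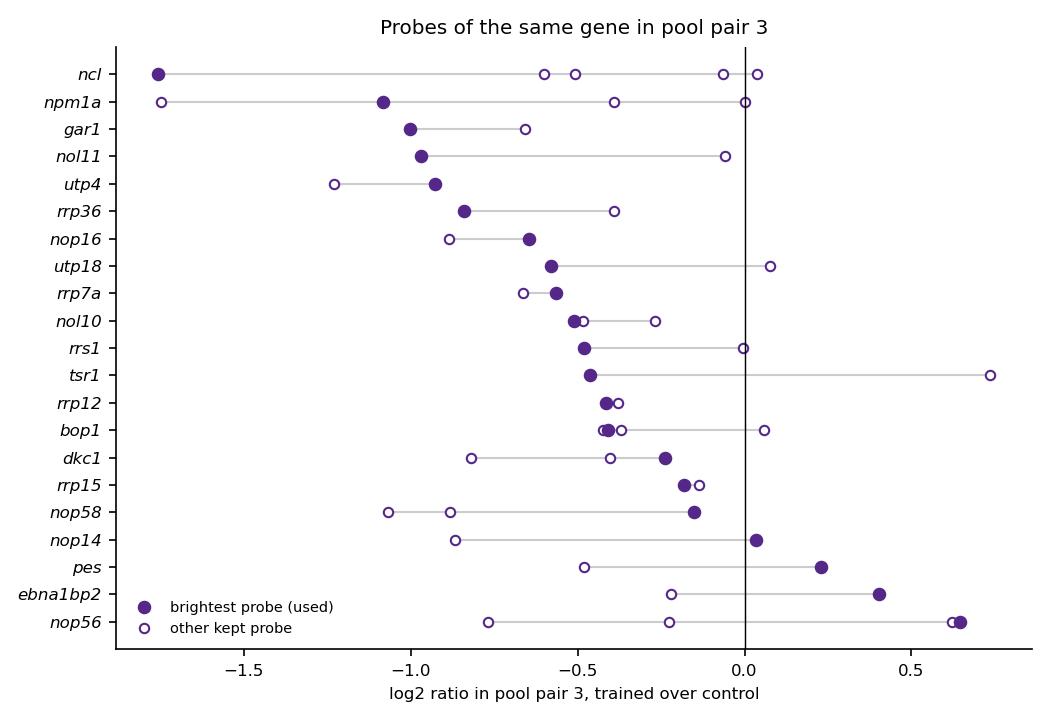
Log2 ratio of trained over control in pair 3 (horizontal axis) for the 21 ribosome biogenesis genes with at least 2 probes that passed the filter, with a filled point for the brightest probe and open points for the others. The probes of ncl span -1.76 to 0.04 and those of nop56 span -0.77 to 0.65.

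Other genes of ribosome assembly, listed by function, had medians below 0 in pair 3 as well. No gene of these or of the lists named after them passed the test across all genes, with adjusted p-values of at least 0.751. Of 39 genes listed as other genes of the processome and 40S assembly 33 were measured. Their median ratio was -0.06 in pair 2 and -0.38 in pair 3. In the mean of both pairs 25 lay below 0 and 8 above, against 6757 below 0 and 9015 above among all 15772 genes. Among the 9241 genes with a symbol, 4584 lay below 0 and 4657 above. Their smallest p-values belonged to rcl1, a partner of bms1, with a mean of -0.54 ± 0.23, to tsr2, a chaperone of a 40S protein, with -0.45 ± 0.20, and to noc4l, a partner of nop14, with -0.64 ± 0.29.

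The 40 measured of 53 other 60S assembly genes lay at a median of -0.03 in pair 2 and at -0.39 in pair 3. The nat10 gene is counted both here and in the processome and 40S list. In the mean of both pairs 33 lay below 0 and 7 above, against 6757 and 9015 of all 15772 genes. Of the 9241 with a symbol, 4584 lay below and 4657 above. At an unadjusted p of 0.05 in the limma test 4 lay lower, against 1.82% of all genes. The nucleolar RNA helicase gene ddx21 had log2 intensities of 11.26 and 11.14 in T2 and T3, against 11.80 and 11.97 in C2 and C3. The trained pools of ddx21 lay lower without overlap, as for 14% of all genes. Its ratios were -0.54 in pair 2 and -0.83 in pair 3 (mean -0.69 ± 0.18; SE; limma adjusted p = 0.751). The 60S precursor protein gene rsl24d1 had 11.07 and 10.26 in the trained pools, against 11.57 and 11.54 in the control pools, and sdad1, a factor of 60S export in yeast, had 9.41 and 9.29 in the trained pools, against 9.82 and 10.12 in the control pools. Their mean ratios were -0.89 ± 0.24 and -0.62 ± 0.19 (SE). Control pool 3 did not stand above control pool 2 for rsl24d1, unlike for most of the 39 genes.

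A list of 15 assembly factors and other proteins of the box C/D and H/ACA particles had 10 measured genes. All 10 lay below 0 in the mean of both pairs, against 6757 of all 15772 genes and 4584 of the 9241 with a symbol. Their medians were -0.01 in pair 2 and -0.48 in pair 3. Among them the assembly ATPase gene ruvbl1 had a mean of -0.48 ± 0.22 and the box C/D RNA-binding protein genes snu13b and snu13a had -0.55 ± 0.26 and -0.46 ± 0.27. The nuclear exosome complex trims ribosomal RNA ends. Of the 15 genes of its list 14 were measured, at medians of -0.02 and -0.35 in pairs 2 and 3. Those 14 include pals2b, which is not an exosome gene and was matched through the older name mpp6. Among the others exosc2 lay at -0.62 ± 0.25, exosc10 at -0.44 ± 0.23 and exosc3 at -0.30 ± 0.17. Of 16 genes of RNA polymerase I and its factors 8 were measured, 5 below 0 and 3 above, at a median of -0.01 in pair 2 and of -0.31 in pair 3. The subunit genes polr1e and polr1f had means of -0.28 ± 0.20 and -0.25 ± 0.19, and ubtfl, related to the activator UBF, had 0.36 ± 0.24.

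Among Myc and its partner transcription factors 8 of 12 were measured, 4 below 0 and 4 above. Their medians were 0.01 in pair 2 and -0.06 in pair 3. The mycn gene had log2 intensities of 7.61 and 7.03 in T2 and T3, against 7.93 and 8.12 in C2 and C3. The trained pools lay lower without overlap, as for 14% of all genes. Its ratio was below 0 on all 6 arrays, as for 8.38% of all genes (mean -0.71 ± 0.24; SE; limma adjusted p = 0.751). The other measured myc genes, mycb, mych and myca, had means of -0.18, -0.02 and 0.004. The Max partners mxd3 and mxi1, which oppose Myc in mammals, had means of -0.41 ± 0.17 and 0.51 ± 0.26.

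**Figure D5:**
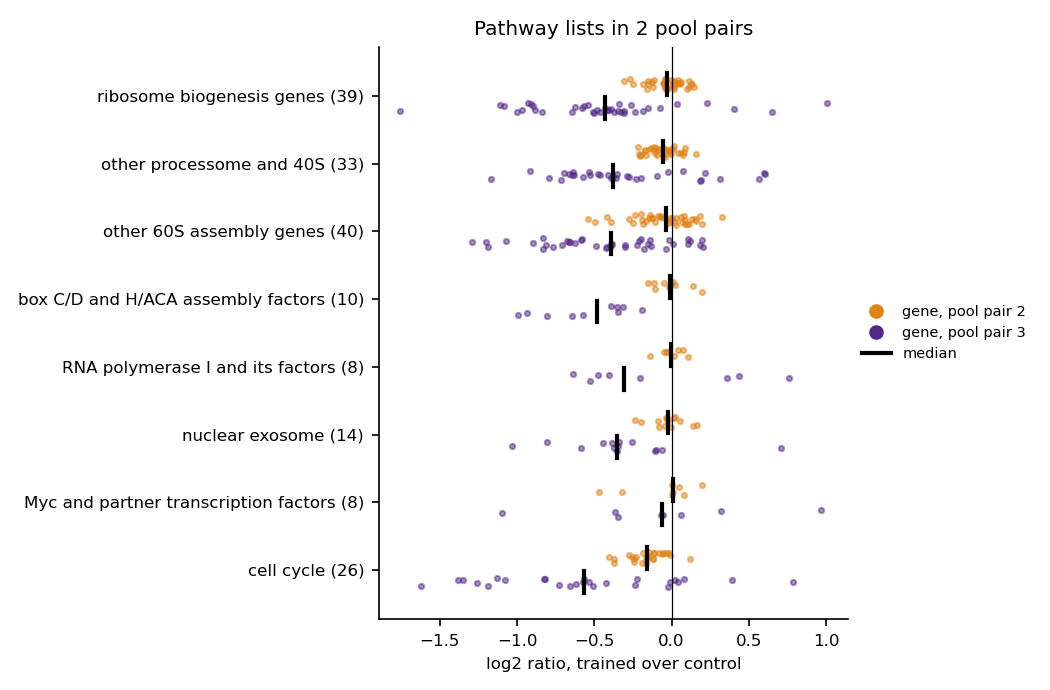
Log2 ratio of trained over control (horizontal axis) in pair 2 (orange) and pair 3 (purple) for single genes of each list, with black bars at the medians and the number of measured genes in brackets. The median in pair 3 is -0.43 for the ribosome biogenesis genes and -0.57 for cell cycle genes.

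Cell cycle genes, which mark dividing cells, also lay lower in the trained pools. Of 34 such genes 26 were measured, with medians of -0.16 in pair 2 and -0.57 in pair 3. In the mean of both pairs 22 of the 26 lay below 0, against 6757 of all 15772 genes and 4584 of the 9241 with a symbol. At an unadjusted p of 0.05 in the limma test 5 lay lower, against 1.82% of all genes. The mitotic checkpoint gene mad2l1 had a mean of -0.74 ± 0.22, the replication gene rpa3 had -0.82 ± 0.26 and the replication clamp gene pcna had -0.996 ± 0.32. The summed intensity of the 26 genes was 16970 in T2 and 19610 in T3, against 18700 in C2 and 26920 in C3. C3 was the highest pool for 14 of the 26, against 33 of the 39 ribosome biogenesis genes and 29% of all genes. Mitotic genes of the list differed in their highest pool, and they were named after their values were seen. It was C2 for kif11, aurka, plk1, birc5a, cdca8, ccnb2 and cdc20, and C3 for mad2l1, cdk1 and aurkb. For ccnb1 it was T2, and for ccna2 it was T3.

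Markers of other tissues also differed between pools, in different directions. The 3 measured of 5 blood markers lay below 0 in pair 3 and above 0 in pair 2 (medians -0.78 and 0.06), with summed intensities of 4496 in T2 and 1959 in T3, against 4211 in C2 and 5882 in C3. All 5 slow muscle markers lay below 0 in both pairs (medians -0.06 in pair 2 and -0.23 in pair 3). The 11 fast muscle markers summed to 478900 in T2 and 444600 in T3, against 359100 in C2 and 334700 in C3. The fast muscle median lay at 0.38 in pair 2 and at 0.04 in pair 3, where 5 of the 11 lay below 0. The 11 measured of 12 epidermis markers summed to 298600 and 349200 in the trained pools, against 259300 and 250600 in the control pools, with 5 of the 11 below 0 in pair 3. These sums rest on a few bright probes. With the offset of 50 no intensity can be 0, so the sums do not show whether a tissue was absent from a pool. The part of dividing cells, blood, muscle and epidermis in the lower ratios of the ribosome biogenesis genes was not tested.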

How the data were processed

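RNA of 2 trained and 2 control pools was measured on 6 two-colour arrays. Scans were read by the authors in Agilent Feature Extraction 10.5.1.1, per the submitters' processing notes. The deposited scanner files hold median spot and background intensity in each colour and flags per spot (other values, 0 or 1), and the table of values deposited for the series holds the same arrays' log10 ratio of Cy5 over Cy3, with column medians of 0, used as an alternative. Local backgrounds over 10 median absolute deviations from the array median were replaced by it, and intensities were corrected with normexp (offset 50) and normalised by loess within arrays (limma 3.58.1, R 4.3.3). Flagged spots were left out. Every log2 ratio was expressed as trained over control, and arrays were averaged by dye orientation and then by pair. Pool levels were taken after Aquantile normalisation between arrays.

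A probe was kept when well above background on all 6 arrays in the trained or the control colour, and the brightest kept probe stood for the gene. Probes took their symbols through unversioned accessions from the GRCz12tu RefSeq gene list, which named 25173 of 43603 probes. No coordinates were used.

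The limma test set the 2 pair values against 0, two-sided, with Benjamini-Hochberg adjustment at 0.05 over 15772 genes. With 1 residual degree of freedom per gene the moderated SE draws on a prior of 4.15. Precision is limited by how few arrays and pools there were. The script was tested on simulated data in which both pairs had the spread of pair 2 (SD 0.152) and the same true differences. Pair 3 spread wider (SD 0.528), so that test does not show how well differences in these data are found. The genes and gene lists were chosen with earlier results of these data known. The text names the 12 genes with the smallest unadjusted p, anchors of each role, and up to 3 genes per other list by smallest p, while the remaining ribosome biogenesis genes are given by ratio. One gene list is not reported here. Pools of one number share arrays, so trained and control were compared within pairs.

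Alternatives changed the background correction, offset, normalisation, filter, choice of probe, technical repeats, blocks and moderation, and left out each pair. Markers of larval fin, epidermis, fast and slow muscle, cartilage, blood, neural tissue and white blood cells were measured. Median ratios were 0.07 for larval fin, 0.23 for epidermis, 0.21 for fast muscle and -0.15 for slow muscle. They were -0.13 for cartilage, -0.32 for blood, 0.10 for neural tissue and -0.01 for white blood cells. The 5 measured of 6 cartilage markers ran between -0.94 and 0.54, and the 3 of 5 neural markers between -0.19 and 0.24. Of 4 white blood cell markers 2 were measured, 1 below 0 and 1 above.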

Additional observations from a re-analysis of the deposited data

How the results depend on the processing

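The median log2 ratio over the ribosome biogenesis genes stayed below 0 under all 21 alternatives. It ran between -0.43 without replicate 2 and -0.03 without replicate 3, and it was -0.17 within slide 1 and -0.16 within slide 2. Each slide held arrays of both pairs, so the slides measured the same RNA and are not separate replicates. None of the 39 genes passed the adjusted threshold in the main test or in the 17 other tests, and the smallest adjusted p, 0.0775 for utp4, came from taking 6 arrays as independent, which counts arrays of the same RNA as replicates. In a fit of 6 arrays with a random replicate block for the pool pair (correlation 0.646) the smallest was 0.249. The number of genes at least 1.5-fold lower in pair 3, 12 in the main setting, was 19 with an offset of 10, 3 with local backgrounds as deposited, 23 with processed signals, 24 with the deposited value table and 22 with median centring, against 13.2%, 2.1%, 19.5%, 19.6% and 16.2% of all genes. The number at least 1.5-fold higher in pair 3, 2 in the main setting, was 0 with local backgrounds as deposited and 1 with median centring or with the mean of kept probes. The number lower at an unadjusted p of 0.05, 3 in the main setting, was 1 without background correction (1.27% of all genes) or with median centring (1.57%), 0 without the filter on dim probes (1%) or with 4 pools and no replicate block (1.31%), 9 with the replicate block (5.9%) or with arrays as independent (10.6%), and 6 with the slide as a block (8.48%) or with an intensity trend and a robust prior (3.75%), against 1.82% in the main setting. The 3 genes above 0 in both pairs were 0 with the mean of kept probes. Leaving out either pair gave ratios between -0.048 and 1.01 for bms1 and between -1.11 and 0.017 for rrp9, and both changed sign without replicate 3, to -0.048 for bms1 and 0.017 for rrp9. Without replicate 3 only the pair 2 value is left, so these sign changes restate the opposite signs of the pairs. The causes of the other changes were not tested. Over all genes, 404 were called with arrays as independent, 60 with the slide as a block, 9 with the replicate block and 7 with the trend, and 0 in the main setting. With 1 residual degree of freedom only large differences alike in both pairs could pass.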
